A study of Mus musculus with 4 samples.

Results

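Teneurins are large transmembrane proteins that bind, through their extracellular domains, to teneurins and to latrophilins on neighbouring cells. Latrophilins are adhesion G protein-coupled receptors, and they also bind FLRT proteins, cell-surface proteins with leucine-rich repeats and a fibronectin domain that can in turn bind the UNC5 netrin receptors. These contacts are best known from the wiring of the nervous system. Expression of 9 genes of this system was described in Tmpo KO and Tmpo WT fibroblasts: the 4 teneurins Tenm1, Tenm2, Tenm3 and Tenm4, the 3 latrophilins Adgrl1, Adgrl2 and Adgrl3, and 2 FLRT genes, Flrt2 and Flrt3. The genes were taken by their RefSeq symbols, or by the older names Odz and Lphn, from 23732 gene symbols matched to the counted transcript IDs. All 9 were found, with 12 IDs among them, and each gene was followed by the ID with the most reads. The set was proposed with the contrast of Tmpo KO and Tmpo WT known, so this contrast is given for the 9 genes as a description, with no p-value.

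Total RNA longer than 200 bp was depleted of rRNA and sequenced from immortalized murine dermal fibroblasts (imMDFs) of genotype Lap2alpha -/- (Tmpo KO) and Lap2alpha +/+ (Tmpo WT). Tmpo encodes the LAP2 proteins, and the KO cells lack LAP2alpha, a nucleoplasmic partner of lamin A/C. Each genotype had 2 libraries, replicate 1 at passage 34 and replicate 2 at passage 42, from untreated cells in DMEM with serum. The sources name 1 line per genotype, so the genotype cannot be told apart from other differences between the lines. They give no separate cultures beyond the passages, so p-values measure the spread between these libraries only, which may be technical.

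The Tmpo KO libraries held 15786136 and 19603812 reads in transcripts and the Tmpo WT libraries 12168433 and 15677378 (passages 34 and 42 in this order, as throughout). The Tmpo transcript NM_011605 had 6 and 6 counts in Tmpo KO and 903 and 1324 in Tmpo WT. Of 10 fibroblast markers, 9 were measured above the filter, led by Col1a1, Col1a2, Col3a1 and Vim, and they summed to 11440 and 15630 CPM (TMM-normalized counts scaled to a common library size) in Tmpo KO and 13700 and 12810 CPM in Tmpo WT. Lum stayed between 0.737 and 2.43 CPM. The counted ID of Pdgfra stayed between 1.50 and 4.07 CPM, and that of Pdgfrb was at 0 in every library. Reads that IDs of a gene share were not counted, so such values do not show how high a gene is expressed. Marker lists of keratinocytes, endothelium, melanocytes, Schwann cells and glia, leukocytes and skeletal muscle summed to between 2.02 and 43.8 CPM per library. Among these lists, that of melanocytes had the highest sums, most of it from Tyr. Tyr had 40.1 and 29.9 CPM in Tmpo KO and 26.3 and 35.0 CPM in Tmpo WT.

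Tenm4, on mm9 chromosome 7 from 103319754 to 104059603 on the plus strand, encodes the teneurin with the most reads in each library. Its annotated exons add up to 21.03 kb in a locus of 739.9 kb. An intron on the same strand holds Mir708, the gene of miR-708, from 103397934 to 103398042. The 2 mature miRNAs are shown because they lie inside the gene with the largest difference, with the seed (bases 2 to 8) in capitals.

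mmu-miR-708-5p: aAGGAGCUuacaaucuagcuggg
mmu-miR-708-3p: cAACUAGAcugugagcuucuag

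The seeds of the 2 arms differ. The hairpin had 0 and 0 counts in Tmpo KO and 1 and 1 in Tmpo WT, and RNA of the size of a mature miRNA was removed before sequencing, so miR-708 itself was not measured.

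Promoters from RefSeq, on GRCm38.p6, are shown for Tenm4 and Flrt2, the members with the largest difference between genotypes, and for Adgrl2, the member that differed between passages. Each runs from 250 bases before the start to 50 bases after it, on the strand of the gene, with CpG dinucleotides in capitals. The table has 2 starts for Tenm4.

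Tenm4, chr7:96170994-96171293, plus strand: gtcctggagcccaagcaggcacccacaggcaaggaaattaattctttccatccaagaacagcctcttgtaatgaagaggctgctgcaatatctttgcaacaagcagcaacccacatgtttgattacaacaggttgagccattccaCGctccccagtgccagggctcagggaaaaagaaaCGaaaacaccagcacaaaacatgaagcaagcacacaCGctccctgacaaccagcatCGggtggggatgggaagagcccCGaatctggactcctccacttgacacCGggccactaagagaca
Tenm4, chr7:96211421-96211720, plus strand: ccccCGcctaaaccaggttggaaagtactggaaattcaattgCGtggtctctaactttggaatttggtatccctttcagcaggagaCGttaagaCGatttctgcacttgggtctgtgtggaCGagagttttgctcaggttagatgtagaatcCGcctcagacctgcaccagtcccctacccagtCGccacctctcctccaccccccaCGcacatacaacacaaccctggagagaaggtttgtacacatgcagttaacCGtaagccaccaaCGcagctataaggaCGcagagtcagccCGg
Flrt2, chr12:95691976-95692275, plus strand: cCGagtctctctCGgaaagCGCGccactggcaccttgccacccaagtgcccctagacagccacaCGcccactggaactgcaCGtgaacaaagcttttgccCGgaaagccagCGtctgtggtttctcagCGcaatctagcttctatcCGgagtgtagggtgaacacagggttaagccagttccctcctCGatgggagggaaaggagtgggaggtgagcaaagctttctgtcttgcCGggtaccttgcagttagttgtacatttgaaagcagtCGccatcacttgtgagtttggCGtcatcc
Adgrl2, chr3:148954586-148954885, minus strand: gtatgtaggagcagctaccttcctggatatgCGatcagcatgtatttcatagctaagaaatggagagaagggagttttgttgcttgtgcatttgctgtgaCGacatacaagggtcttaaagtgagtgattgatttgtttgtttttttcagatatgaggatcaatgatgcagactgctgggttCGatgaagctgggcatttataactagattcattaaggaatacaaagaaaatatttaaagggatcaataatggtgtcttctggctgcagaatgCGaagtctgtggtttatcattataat

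The Tenm4 windows held 6 and 12 CpG and the Flrt2 window 14, against a median of 7 and an upper quartile of 20 over 32851 promoters of the same length. The Adgrl2 window had 4 CpG and 38% GC. Adgrl1 had 28 CpG and the 3 starts of Adgrl3 had 40, 21 and 20, so the CpG-rich promoters of the set were those of these latrophilins. Tenm1 had none, with 27% GC. The 5 motifs searched on both strands were the TATA box core TATAAA, held by 13.6% of all promoters, the CCAAT box CCAAT, held by 37.4%, the GC box core GGGCGG, held by 35.7%, the AP-1 motif TGACTCA, held by 5.2%, and the E-box CACGTG, held by 7.15%. Neither Tenm4 window matched any of the 5 motifs. Flrt2 matched CACGTG in 1 place, Adgrl2 matched TATAAA in 1 place, and Adgrl1 matched GGGCGG in 2 places. The 3 starts of Adgrl3 matched GGGCGG in 2, 2 and 1 places, and 1 of them also matched TATAAA. Tenm1 matched TATAAA in 4 places. These are matches of letters and not mapped binding sites.

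Tenm4 was high in both Tmpo KO libraries and low in both Tmpo WT libraries. NM_011858 had 1953 and 3004 counts in Tmpo KO and 98 and 123 in Tmpo WT, or 120 and 155 CPM in Tmpo KO and 8.22 and 7.82 CPM in Tmpo WT. The lower KO library was thus far above the higher WT library. At passage 34 the KO level was 14.6 times the WT level, with an exact 95% interval from 11.9 to 18.1, and at passage 42 it was 19.9 times (16.6 to 24.0). These intervals cover counting error only, since each passage had 1 library per genotype. Over both passages the log2 fold change was 4.10 ± 0.247 (SE, n = 2 each), and its rank from the top was 7 among the 13855 transcripts tested. The larger KO level at passage 42 was not matched in WT, where the levels of both passages lay close together.

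Tenm1, an X-linked teneurin at 39881043 to 40782303 on the minus strand of mm9, was expressed at a low level. NM_011855 had 4.97 and 2.79 CPM in Tmpo KO and 2.10 and 3.88 CPM in Tmpo WT, from 81 and 54 counts in Tmpo KO and 25 and 61 in Tmpo WT. The genotypes overlapped, and the order of the genotypes turned between passages. The ratio of KO to WT was 2.37 at passage 34 (exact 95% interval 1.50 to 3.88) and 0.720 at passage 42 (0.490 to 1.06). The fitted log2 fold change was 0.36 ± 0.446 (SE). Without Tmpo KO replicate 1 it was -0.13, so the library of passage 34 set its direction. Its last exons overlap the gene Gm10483 on the other strand over 1465 bases, and 11% of the 50-base stretches of its transcripts also occur in Gm10483.

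Tenm2 and Tenm3, on mm9 chromosomes 11 and 8, were near 0. Tenm2 had 0 and 3 counts in Tmpo KO and 1 and 0 in Tmpo WT under NM_011856, and its other ID NM_001290702 had 0 and 1 in Tmpo KO and 1 and 0 in Tmpo WT. Tenm3 had 0 and 3 counts in Tmpo KO and 4 and 0 in Tmpo WT under NM_011857, and NM_001145937 had none. Both genes have 2 IDs each, as has Flrt3, whereas the other 6 members have 1. Reads in exons that IDs of a gene share were set aside as ambiguous, so these counts cover only what differs between the IDs and do not show that the genes are silent. Over the series, 31.3% of 2654 genes with 2 IDs had an ID above the filter, against 63.0% of 19025 genes with 1 ID.

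**Figure D1:**
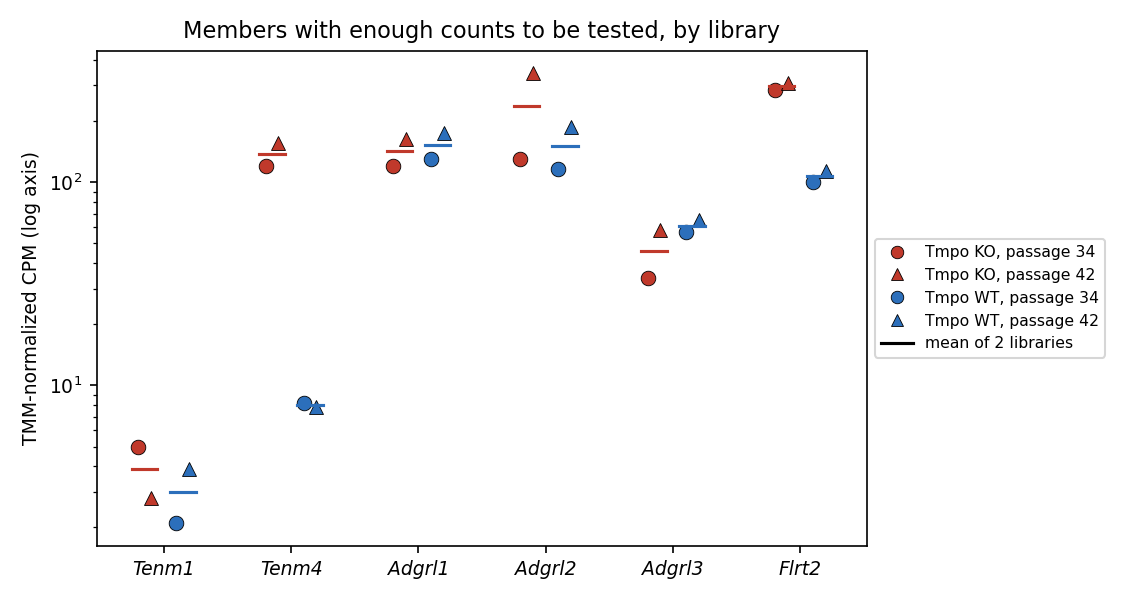
TMM-normalized CPM on a log axis for the 6 members above the filter, 1 point per library, with Tmpo KO in red left of Tmpo WT in blue, circles for passage 34, triangles for passage 42 and bars for the mean of 2 libraries. Only Tenm4 and Flrt2 have both KO points above both WT points, with Tenm4 at 120 and 155 CPM in Tmpo KO and 8.22 and 7.82 CPM in Tmpo WT.

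The latrophilins, the receptors for teneurins and FLRT proteins, were expressed in both genotypes. Adgrl1, on mm9 chromosome 8 at 86424004 to 86465853, had 120 and 164 CPM in Tmpo KO and 130 and 176 CPM in Tmpo WT. The KO library lay slightly below its WT counterpart at each passage, while the genotypes overlapped. The log2 fold change was -0.11 ± 0.231 (SE). It was 0.09 without Tmpo KO replicate 1 and 0.13 without Tmpo WT replicate 2. Of its 50-base stretches, 8.47% also occur in Gm10644, which overlaps its exons on the other strand over 215 bases.

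Adgrl2, on mm9 chromosome 3 at 148478550 to 148652280, had 130 and 344 CPM in Tmpo KO and 116 and 186 CPM in Tmpo WT. The KO library of passage 42 stood apart from the 3 others, and the genotypes overlapped. The KO level was 1.12 times the WT level at passage 34 and 1.85 times at passage 42. The log2 fold change over both was 0.65 ± 0.379 (SE). This value turned on the KO library taken: it was -0.26 without Tmpo KO replicate 2, and 1.18, past the threshold, without Tmpo KO replicate 1.

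Adgrl3, in a locus of 805 kb on mm9 chromosome 5 (81449163 to 82254158), had 33.8 and 58.2 CPM in Tmpo KO and 56.6 and 65.6 CPM in Tmpo WT. Tmpo KO at passage 34 was the lowest of the 4 libraries, and the genotypes overlapped. The KO level was 0.597 times the WT level at passage 34 and 0.888 times at passage 42. The log2 fold change was -0.41 ± 0.268 (SE). Without Tmpo KO replicate 2 it was -0.90 and past the threshold. The antisense gene Gm16054 shares 1126 exonic bases with it.

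Flrt2, a latrophilin and UNC5 ligand on mm9 chromosome 12 at 96930436 to 97023425, was the other member with separate genotypes. It had 284 and 309 CPM in Tmpo KO and 100.0 and 114 CPM in Tmpo WT, with means of 297 ± 17.6 CPM in Tmpo KO and 107 ± 9.96 CPM in Tmpo WT (SD, n = 2 each). All KO values exceeded all WT values, and the passages of a genotype differed little. The KO level was 2.84 times the WT level at passage 34 (exact 95% interval 2.67 to 3.03) and 2.71 times at passage 42 (2.57 to 2.86). The log2 fold change was 1.47 ± 0.200 (SE), with a rank of 263 from the top among 13855 transcripts. Flrt2 had 1 ID and shared no 50-base stretch with another protein-coding gene.

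Flrt3, which lies inside Macrod2 on the other strand of mm9 chromosome 2 (140476650 to 140497205), had 2 and 18 counts in Tmpo KO and 5 and 6 in Tmpo WT under NM_001172160, and NM_178382 had none. Tmpo KO thus had both the lowest and the highest value. The ratio of KO to WT was 0.293 at passage 34 (0.0279 to 1.79) and 2.44 at passage 42 (0.928 to 7.51), and both intervals include equal levels. As with Tenm2 and Tenm3, reads shared by its IDs were not counted.

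Of the 9 members, 6 passed the filter of at least 1 CPM in both libraries of a genotype. In edgeR's quasi-likelihood fit over all transcripts, Tenm4 and Flrt2 passed the threshold (adjusted p under 0.05, adjusted over all 13855 transcripts) with higher levels in Tmpo KO, and none passed with a lower level. Of all transcripts tested, 2.75% passed, 1.51% with higher and 1.24% with lower levels in Tmpo KO. The same 2 members had KO libraries that did not overlap the WT libraries, as did 41.9% of all transcripts, 21.9% with KO above WT. The choice of the genes used this contrast, so nothing is read from these counts. In bulk libraries, fewer cells that express a gene and less RNA per cell cannot be told apart.

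**Figure D2:**
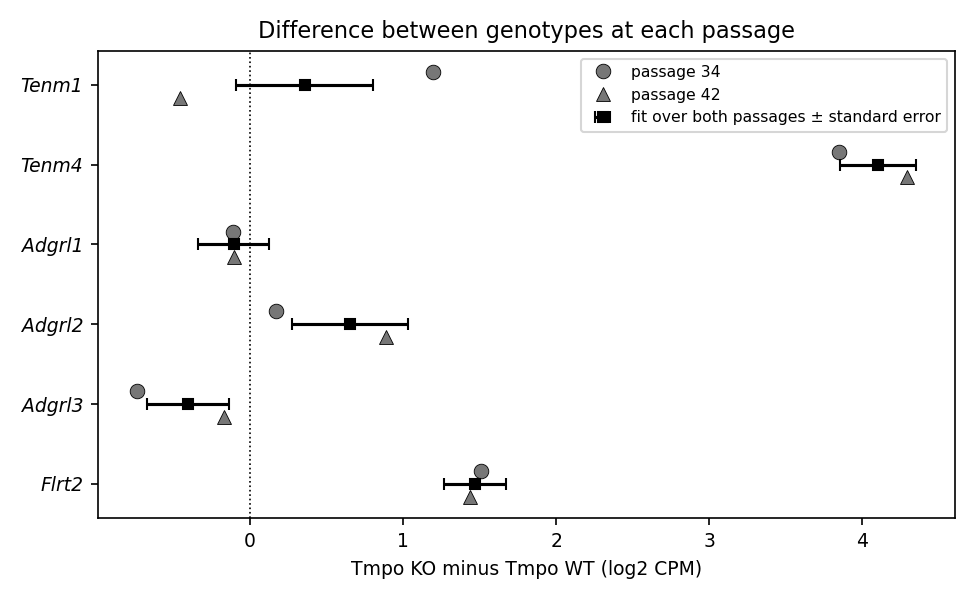
Tmpo KO minus Tmpo WT in log2 CPM for the 6 members above the filter, with circles for passage 34, triangles for passage 42 and squares for the fit over both passages ± its standard error. Tenm4 is at 3.85 and 4.29 and Flrt2 at 1.51 and 1.44, while Tenm1 lies at 1.20 for passage 34 and -0.46 for passage 42.

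Levels were compared between genes per kilobase of annotated exon. In Tmpo KO the order was Flrt2 (38.4 ± 2.27 CPM per kb), Adgrl2 (28.2 ± 18.0), Adgrl1 (16.5 ± 3.58), Tenm4 (6.55 ± 1.19) and Adgrl3 (3.47 ± 1.30), each as mean ± SD of 2 libraries. Flrt2 and Adgrl2 overlapped, as did Adgrl2 and Adgrl1. Tenm1 at 0.219 ± 0.0868 CPM per kb came far below them and overlapped Flrt3. In Tmpo WT the order was Adgrl2 (17.9 ± 5.89 CPM per kb), Adgrl1 (17.8 ± 3.80), Flrt2 (13.9 ± 1.29), Adgrl3 (4.60 ± 0.476), Tenm4 (0.381 ± 0.0134) and Tenm1 (0.168 ± 0.0710). Adgrl2 and Adgrl1 overlapped there. At passage 42 in Tmpo KO, Adgrl2 (40.9 CPM per kb) lay above Flrt2 (40.0 CPM per kb), so the lead of Flrt2 holds for the mean only. Tenm4 lay above Adgrl3 in Tmpo KO and below it in Tmpo WT. With the longest annotated transcript as length, Tenm4 had 10.2 CPM per kb in Tmpo KO and 0.592 in Tmpo WT, and Adgrl3 had 6.77 CPM per kb in Tmpo KO and 8.99 in Tmpo WT, in the same order.

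The teneurin sum was 5.98 and 7.58 CPM per kb in Tmpo KO and 0.547 and 0.591 CPM per kb in Tmpo WT. Tenm4 made up 95.3% and 97.6% of it in Tmpo KO and 71.4% and 63.0% in Tmpo WT, with Tenm1 as most of the rest. The latrophilin sum was 32.0 and 64.3 CPM per kb in Tmpo KO and 33.1 and 47.5 CPM per kb in Tmpo WT, and it was higher at passage 42 in both genotypes. The share of Adgrl2 in it was 48.3% and 63.6% in Tmpo KO and 41.5% and 46.5% in Tmpo WT, and that of Adgrl3 was 7.96% and 6.82% in Tmpo KO and 12.9% and 10.4% in Tmpo WT. Tenm2 and Tenm3 enter the teneurin sum with only the reads that differ between their IDs, so the sum is a lower limit and the share of Tenm4 an upper one. No share is given for Flrt2 and Flrt3 for the same reason.

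**Figure D3:**
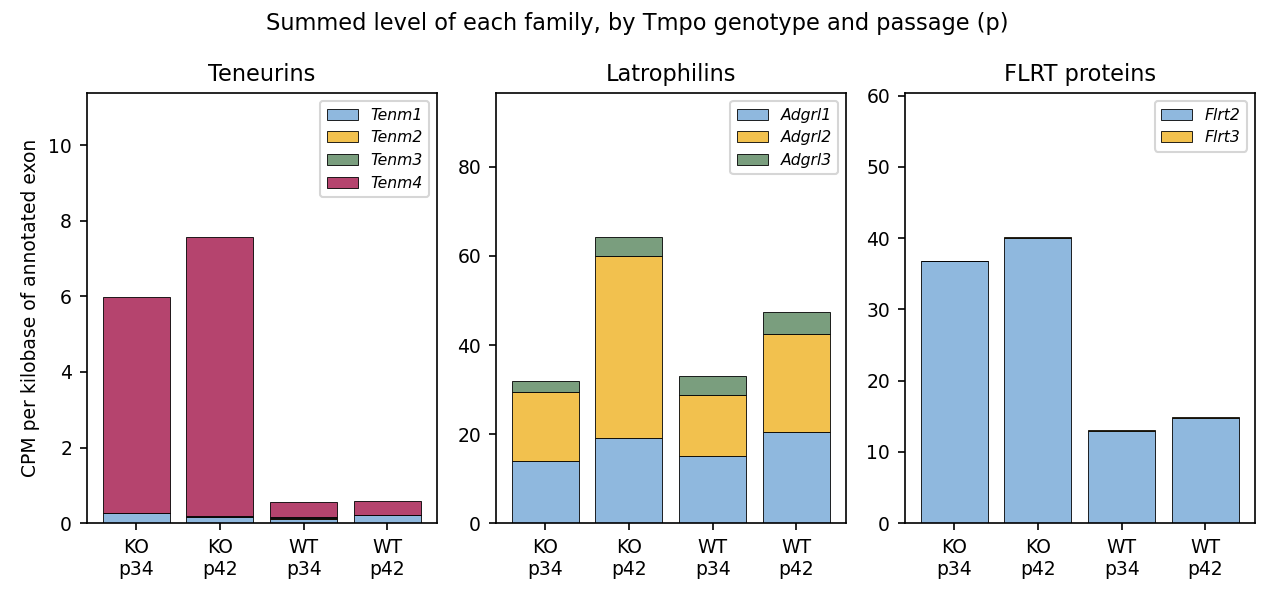
CPM per kilobase of annotated exon, stacked by gene for the teneurins, latrophilins and FLRT genes in each library, with Tmpo KO left of Tmpo WT and passages 34 and 42 side by side (each panel has its own scale, and Tenm2, Tenm3 and Flrt3 were counted only in part). Tenm4 fills the KO teneurin bars of 5.98 and 7.58, against WT bars of 0.547 and 0.591, and Adgrl2 fills most of the KO latrophilin bar at passage 42.

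The rule for the genes names the contrast of genotypes and not that of passages, although earlier results of these data were known when it was written. With genotype as a term, Adgrl2 was higher at passage 42 than at passage 34, with a log2 fold change of 1.04 ± 0.183 (SE) and an adjusted p of 8.18e-06 (edgeR quasi-likelihood test, Benjamini-Hochberg over 13855 transcripts). Its level at passage 42 was 2.64 times that at passage 34 in Tmpo KO and 1.61 times in Tmpo WT, so both lines moved the same way. It was 1 of 6 members past the threshold, against 2.31% of all transcripts, 1.77% with a higher and 0.541% with a lower level at passage 42. DESeq2 gave Adgrl2 a log2 fold change of 1.03 and an adjusted p of 0.0190. Without the term for genotype, the value was 1.11 with an adjusted p of 0.967. Whether the passage difference of Adgrl2 differed between the genotypes could not be tested, since each genotype had 1 library per passage.

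The other latrophilins lay in the same direction but did not pass. Adgrl1 had a log2 fold change of 0.44 ± 0.182 (SE, adjusted p 0.235 in the same edgeR fit), with 1.36 times the passage 34 level at passage 42 in both genotypes. Adgrl3 had 0.50 ± 0.222 (SE, adjusted p 0.311), with 1.72 times the level in Tmpo KO and 1.16 times in Tmpo WT. The values of Tenm4 (0.18 ± 0.217), Flrt2 (0.16 ± 0.180) and Tenm1 (-0.04 ± 0.409) were within 1 SE of 0 (adjusted p 0.844 to 0.987 in edgeR). In this fit the spread was taken wholly from the trend over transcripts, with 1 residual degree of freedom per transcript. An exact permutation test of 2 libraries against 2 gives no two-sided p under 0.333. The passage is also the replicate number, so a difference between passages and one between preparations cannot be told apart. The fibroblast marker Fn1 (log2 fold change 1.23, adjusted p 5.93e-05 in edgeR) and the collagen gene Col1a1 (0.95, adjusted p 0.00113) were higher at passage 42 as well, while the values of 5 of the 9 tested fibroblast markers were negative and none of these passed. The neuronal tubulin Tubb3 was lower at passage 42 (-1.07, edgeR adjusted p 8.82e-05). Of the 6 tested neuron markers, 4 values were negative and 2 positive, with a median of -0.21, and no other passed. The part of these markers in the Adgrl2 difference was not tested.

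**Figure D4:**
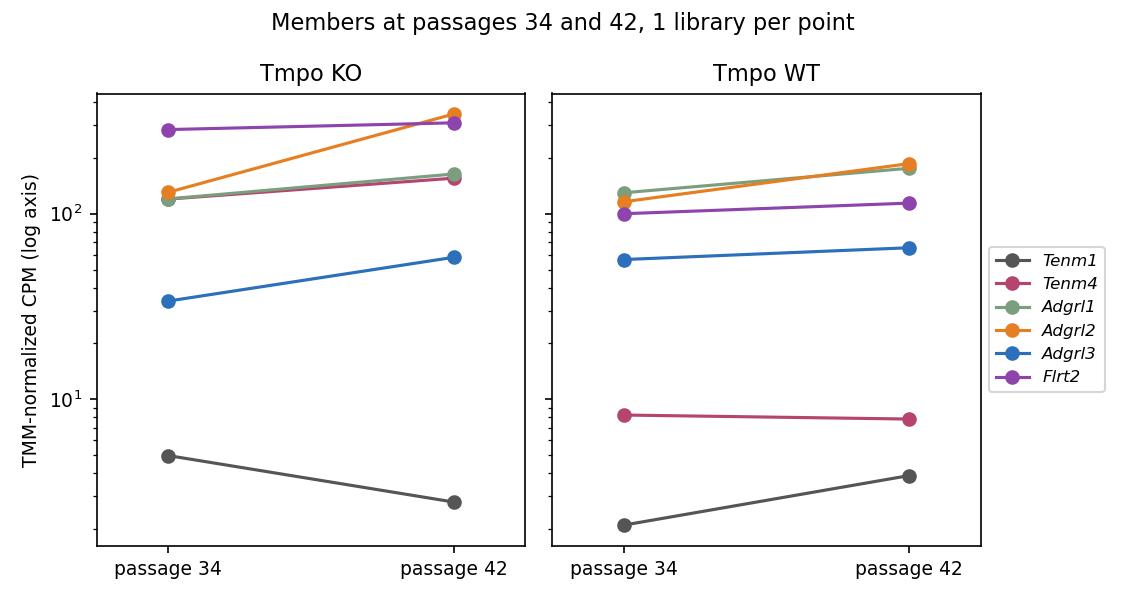
TMM-normalized CPM on a log axis at passages 34 and 42 for the 6 members above the filter, with Tmpo KO in the left panel and Tmpo WT in the right, 1 library per point. Adgrl2 climbs to 344 CPM at passage 42 in Tmpo KO, against 130 CPM at passage 34, and it also lies higher at passage 42 in Tmpo WT.

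The surroundings of the members were looked up on mm9. The nearest tested genes around Tenm4 were Prcp, 3237 kb before it with a log2 fold change of -0.30 ± 0.232 (SE) between Tmpo KO and Tmpo WT, and the tRNA synthetase gene Nars2, 40.4 kb after it with 0.43 ± 0.372 (SE). Neither passed the threshold. Gm15413, an antisense transcript within Tenm4, had 19 and 55 counts in Tmpo KO and 16 and 21 in Tmpo WT, with a log2 fold change of 0.59 ± 0.493 (SE) that did not pass. Gm15412, another antisense transcript there, had 5 and 10 counts in Tmpo KO and 2 and 1 in Tmpo WT. The exons of Gm15415 overlap those of Tenm4 on the other strand over 859 bases. Whether the counting used the strand is not stated, so reads of Tenm4 and of Gm15415 in those bases cannot be told apart. Around Flrt2 the nearest tested genes were Ston2, 3904 kb before it, and Galc, a lysosomal galactosylceramidase gene, 2417 kb after it. Their log2 fold changes were 0.18 ± 0.280 (SE) and 0.78 ± 0.292 (SE), with an edgeR adjusted p of 0.258 for Galc. No tested gene next to or overlapping any of the 9 members passed. The genes next to them lay between 13.6 kb (Asf1b, after Adgrl1) and 4912 kb (Neil3, after Tenm3) away. Any nearer gene below the filter was not compared.

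Related members share little sequence that reads could confuse. The longest identical run between teneurin transcripts was 29 bases, between Tenm2 and Tenm4, and between latrophilin transcripts 36 bases, between Adgrl1 and Adgrl2. Flrt2 and Flrt3 shared 17 bases. No 50-base stretch of Tenm4, Adgrl2, Adgrl3 or Flrt2 occurred in a transcript of another protein-coding gene. Non-coding genes were not searched, and those that overlap exons of Tenm4 and Adgrl3 (Gm15415 and Gm16054) share sequence with them.

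The transcripts whose profile over the 4 libraries was nearest to that of Tenm4, by Euclidean distance of centred log2 CPM, were Hoxb7 (0.239), Bnc1 (0.383) and Gpr149 (0.590). Hoxb7, a homeobox transcription factor gene, had 14.5 and 18.7 CPM in Tmpo KO and 0.839 and 1.02 CPM in Tmpo WT. Bnc1, which encodes the zinc finger protein basonuclin, had 22.8 and 30.1 CPM in Tmpo KO and 1.93 and 1.91 CPM in Tmpo WT. Nearest to Flrt2 were Rgs16 (0.0492), a regulator of G protein signalling, Smpdl3b (0.0606) and the homeobox gene Hoxc5 (0.172). Rgs16 had 40.3 and 44.5 CPM in Tmpo KO and 13.7 and 16.1 CPM in Tmpo WT. With 4 libraries, many transcripts that differ by a like fold come close.

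Around the members, 6 lists were chosen by role, with earlier results of these data known. They held 104 further genes of cell adhesion and guidance. Of these, 68 passed the filter, and 5 were higher and 1 lower in Tmpo KO past the edgeR threshold, with a median log2 fold change of 0.08 against 0.016 over all transcripts. The direction was less one-sided with other tools, with 5 higher and 4 lower in DESeq2 and 5 higher and 5 lower in edgeR's exact test. The 6 genes past the threshold in the main edgeR fit are 8.82% of the 68, beside 2.75% of all transcripts. The direct partners of the FLRT proteins are among the 104 genes followed. Of 12 genes for Flrt1, the UNC5 receptors, netrins, other netrin receptors and repulsive guidance molecules, 11 were tested and none passed in edgeR, while 2 had an unadjusted p under 0.05, and DESeq2 and edgeR's exact test called 1 each. Flrt1 had 5.22 and 6.62 CPM in Tmpo KO and 4.87 and 6.61 CPM in Tmpo WT. Unc5b, the most abundant receptor of this list, chosen after its values were seen, had 245 and 189 CPM in Tmpo KO and 211 and 217 CPM in Tmpo WT.

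On the list of FGF receptors and Slit/Robo genes, 2 of 9 tested genes rose and none fell. Beside this count, and those of the lists below, stand 2.75% of all transcripts past the threshold. Fgfr1 was not tested, since its counted ID had 0 counts in every library. Slit3, a secreted guidance ligand, had 227 and 401 CPM in Tmpo KO and 64.6 and 57.1 CPM in Tmpo WT, with a log2 fold change of 2.37 ± 0.274 (SE, edgeR adjusted p 9.83e-04). Its receptor gene Robo2 had 10.9 and 19.0 CPM in Tmpo KO and 3.02 and 2.86 CPM in Tmpo WT, with 2.35 ± 0.377 (SE, edgeR adjusted p 0.00666). The genotypes did not overlap for either gene, as for 41.9% of all transcripts. Slit3 passed with any library left out. Robo2 did not pass without Tmpo WT replicate 1 (adjusted p 0.0570) or replicate 2 (0.114), where its log2 fold change was 2.40 and 2.31.

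Among other adhesion G protein-coupled receptors, 1 of 17 tested genes rose in edgeR, while DESeq2 called 2 and the exact test 3. Adgrg6, a receptor known for its role in Schwann cell myelination, had 52.8 and 67.0 CPM in Tmpo KO and 29.3 and 24.1 CPM in Tmpo WT, with a log2 fold change of 1.17 ± 0.238 (SE, edgeR adjusted p 0.0236). Without Tmpo WT replicate 1 or replicate 2 it did not pass (adjusted p 0.0954 and 0.317). Of 5 genes for other teneurin contacts, 3 were tested. None of these passed in edgeR, DESeq2 or the exact test, and 1 had an unadjusted p under 0.05. Dag1 and Ilk had too few counts under their counted IDs, so no change of theirs was tested.

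Among neurexins, neuroligins and other synaptic adhesion genes, 1 of 18 rose and 1 fell, both genes of LAR-type receptor tyrosine phosphatases. Ptprf had 51.5 and 77.3 CPM in Tmpo KO and 21.3 and 11.3 CPM in Tmpo WT (log2 fold change 1.99 ± 0.327 SE, edgeR adjusted p 0.00786). Ptprd had 20.2 and 22.8 CPM in Tmpo KO and 43.2 and 57.4 CPM in Tmpo WT (-1.23 ± 0.245 SE, edgeR adjusted p 0.0213). Ptprd and Ptprf thus moved in opposite directions. Ptprf did not pass without Tmpo WT replicate 2 (adjusted p 0.0933), nor Ptprd without Tmpo WT replicate 1 (0.0570) or replicate 2 (0.337).

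Alcam, an immunoglobulin-type adhesion molecule, was the 1 riser of 10 tested contactin and immunoglobulin adhesion genes, with 142 and 230 CPM in Tmpo KO and 65.7 and 52.5 CPM in Tmpo WT. Its log2 fold change was 1.66 ± 0.257 (SE, edgeR adjusted p 0.00548), and it did not pass without Tmpo WT replicate 2 (adjusted p 0.0928). Between passages, beside 2.31% of all transcripts (1.77% higher and 0.541% lower), 1 of the 68 genes passed as higher and 1 as lower at passage 42. These were Lrrtm2, a postsynaptic adhesion gene (log2 fold change 1.25, edgeR adjusted p 0.00693), and L1cam, a neural adhesion gene (-1.14, adjusted p 0.0112). DESeq2 called neither, and without the term for genotype no transcript passed in edgeR, while 669 had an unadjusted p under 0.05.

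Markers of neurons, the cells in which these adhesion genes are best known, were low apart from Tubb3 and, in Tmpo KO, Stmn2. Tubb3 had 62.4 and 32.4 CPM in Tmpo KO and 130 and 56.7 CPM in Tmpo WT. The 11 genes of the list summed to 102 and 50.4 CPM in Tmpo KO and 146 and 76.4 CPM in Tmpo WT, most of it from Tubb3. Of the 6 tested, Stmn2 was higher in Tmpo KO (log2 fold change 3.83 ± 0.549 SE, edgeR adjusted p 0.00381), and the others did not pass. Stmn2 had 24.7 and 8.12 CPM in Tmpo KO and 1.01 and 1.27 CPM in Tmpo WT. The list as a whole went the other way, with 4 of the 6 values negative and a median of -0.71. The counted ID of Syt1 was at 0 in all libraries. That of Rbfox3 had 0 and 0 counts in Tmpo KO and 1 and 5 in Tmpo WT. That of Snap25 had 2 and 2 in Tmpo KO and 2 and 0 in Tmpo WT. Reads that IDs of a gene share were not counted, so such values do not show that a gene is silent. Of the 9 tested fibroblast markers, Thy1 was higher in Tmpo KO (log2 fold change 1.80 ± 0.268 SE, edgeR adjusted p 0.00469) and the others did not pass. The values of 6 of the 9 were negative, with a median of -0.33. The part of these markers in the differences of Tenm4 and Flrt2 was not tested.

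**Figure D5:**
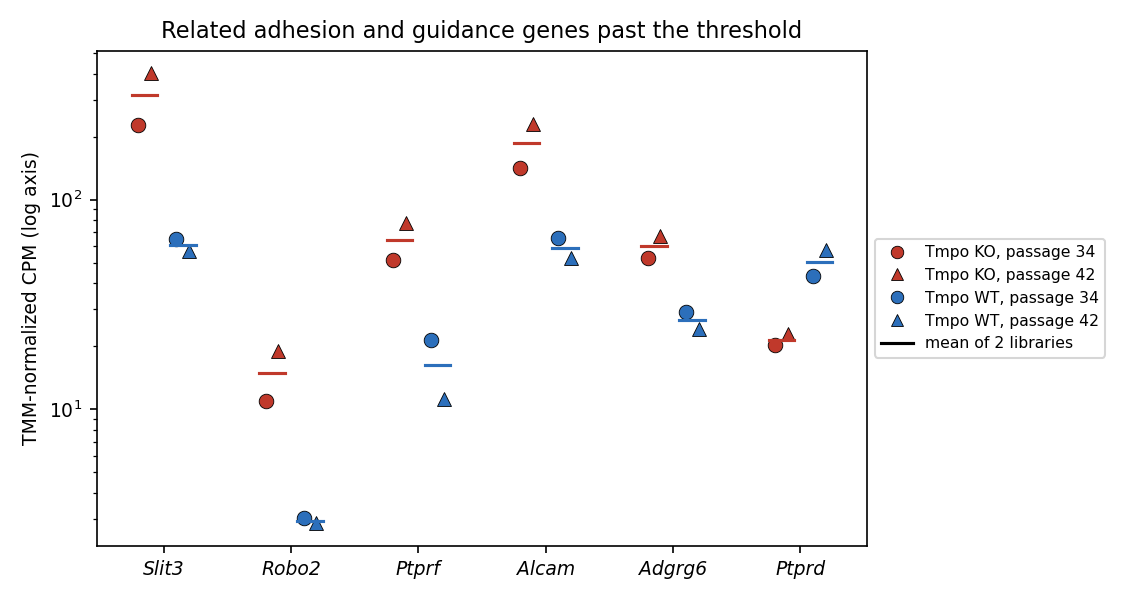
TMM-normalized CPM on a log axis for the 6 genes on the related lists that passed the edgeR threshold between genotypes, with Tmpo KO in red left of Tmpo WT in blue, circles for passage 34, triangles for passage 42 and bars for the mean of 2 libraries. Slit3, Robo2, Ptprf, Alcam and Adgrg6 have both KO points above both WT points, and Ptprd has both below.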

How the data were processed

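The deposited values are raw counts per RefSeq transcript ID, which the authors made with cutadapt, TopHat2 2.0.9 on mm9 and HTSeq per the submitters' processing notes and the study's methods. Reads in no transcript (49.9% to 56.5% of all reads in the files) and ambiguous reads (12.1% to 13.4%) stayed out of library sizes and tests. Symbols were matched to 32308 of 32757 IDs through RefSeq. Counts were scaled by TMM and tested with edgeR 4.0.16 in R 4.3.3 (quasi-likelihood test, p adjusted after Benjamini and Hochberg, threshold 0.05) on 13855 transcripts with at least 1 CPM in both libraries of a genotype. Standard errors came from the fold change and the test statistic. Differences within a passage used a prior count of 2. Positions and exon lengths came from GENCODE on NCBIM37, with the union of a gene's annotated exons as length, since exons of the single IDs were not at hand. Alternatives were DESeq2 1.42.0, edgeR's exact test, scaling by RLE size factors or by totals, 2 other filters, counts summed per symbol, a replicate block, no term for genotype, a prior count of 0.5, the longest annotated transcript as length, and each library left out. The fit was tested on simulated data. The 9 genes, lists and tests were chosen with earlier results of these data known. Named are the 9 genes, Tmpo, markers and genes past the threshold on the related lists (at most 4 per list by p). Also named are Flrt1, Unc5b, some list genes with too few counts, overlapping or neighbouring genes and the 3 nearest profiles of Tenm4 and Flrt2. Tables and plots were made in Python 3.11.15 (scipy 1.17.1, numpy 2.4.6, pandas 2.3.3, matplotlib 3.10.9).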

Additional observations from a re-analysis of the deposited data

Results flagged for a closer look

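The difference of Tenm1 between Tmpo KO and Tmpo WT had opposite signs at the 2 passages, 1.20 in log2 CPM at passage 34 and -0.46 at passage 42. Each value is from 1 library per genotype, and the difference between the passages was not tested.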

How the results depend on the processing

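Transcripts past the threshold between Tmpo KO and Tmpo WT numbered 381, and 612 with edgeR's exact test and 740 without the filter. With a library left out they numbered between 109 and 1291, lowest without Tmpo WT replicate 2 and highest without Tmpo KO replicate 2. Genes of the related lists past it numbered 6 (5 higher and 1 lower in Tmpo KO), and 10 with the exact test and 10 without the filter (5 higher and 5 lower in each), and between 2 (1 higher and 1 lower, without Tmpo WT replicate 2) and 13 (8 higher and 5 lower, without Tmpo KO replicate 1) with a library left out. Members past it numbered 2, and between 2 and 3 with a library left out. Tenm4 stayed between 3.86 and 4.27 and Flrt2 between 1.36 and 1.57 in log2 fold change over 12 alternatives. With a library left out, log2 fold changes of Tenm1 ran from -0.13 (without Tmpo KO replicate 1) to 0.88, of Adgrl1 from -0.39 to 0.13 (without Tmpo WT replicate 2, with 0.09 without Tmpo KO replicate 1) and of Adgrl2 from -0.26 (without Tmpo KO replicate 2) to 1.18. Between passages, 320 transcripts passed, 40 with DESeq2 and 0 without the term for genotype, and of the members 1 passed, and 0 without that term (0 transcripts at an adjusted p under 0.05 in edgeR, 669 at an unadjusted p under 0.05). The causes were not tested. Replicate numbers are passages, and nothing in the labels says that they mark a shared batch. The deviations of same-numbered libraries correlated with r = 0.175 over 13855 transcripts. With a block for the replicate number, 1092 transcripts, 3 members and 12 genes of the related lists (7 higher and 5 lower) passed, with Adgrl2 as the added member (log2 fold change 0.53).

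With the longest annotated transcript as length, levels in Tmpo KO moved to 10.2 CPM per kb for Tenm4, 6.77 for Adgrl3 and 41.8 for Flrt2. Adgrl2 went from 28.2 to 39.2 CPM per kb, so its mean came nearer to that of Flrt2 but stayed below it. Tenm2, Tenm3 and Flrt3 were counted only where their IDs differ, and Tenm1 rested on at most 81 counts per library. A single line per genotype and 2 libraries each limit what the contrast can say of the deletion itself.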
